A study of Xenopus tropicalis with 31 samples.

Results

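foxi1 encodes a forkhead transcription factor of the Foxi family, and these data describe what was bound at its locus in Xenopus tropicalis embryos between blastula and early gastrula. The gene lies on chromosome 3 of the v10.0 genome at chr3:32477798-32480125, spans 2328 bp and is read from the minus strand, so that higher coordinates are upstream of its start. Every region that touched the gene or the 20 kb on either side of it was taken from all 16 lists of chromatin immunoprecipitation followed by sequencing (ChIP-seq), which gave 33 of 190255 regions. Of these, 30 were peaks among the 100260 peaks of the 12 Foxi2, Sox3 and Ep300 lists, and 3 were regions among the 89995 of the 4 histone lists. dock2 was the only other protein-coding gene in this window of 42328 bp. It begins 17936 bp upstream of foxi1, and the next protein-coding gene on the other side, lcp2, is 119096 bp away.

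Foxi1 is known in Xenopus as a regulator of the non-neural ectoderm, and later of ionocytes, the ion-transporting cells of the larval skin. Its relative Foxi2 is supplied by the egg, as is Sox3, an HMG-box factor found in ectodermal and later in neural cells, and both bind DNA directly. Ep300 is a histone acetyltransferase with no sequence-specific DNA-binding domain of its own, which is brought to enhancers by other factors. Acetylation of lysine 27 of histone H3 (H3K27ac) is found at active enhancers and promoters, and trimethylation of the same residue (H3K27me3) marks Polycomb-repressed chromatin.

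The series held 31 samples, of which 3 were input DNA with no list of their own. Foxi2 and Sox3 were precipitated from whole wild-type embryos at Nieuwkoop-Faber stages 8, 9 and 10.5, with 2 samples each, and Ep300, H3K27ac and H3K27me3 from ectoderm or endoderm dissected at stage 10.5, with 1 sample per tissue for H3K27ac and 2 for H3K27me3. Ep300 was measured in a first experiment with 1 sample per tissue, and in a second with 2 samples each of wild-type (WT) tissue and of tissue from embryos injected with morpholinos that block translation of foxi2 and sox3 (FS morphants). By the study's methods, morpholinos went into the animal side of the egg or into the animal blastomeres, so endoderm is not the tissue that was targeted. No control-morpholino list was analysed here, and injection itself cannot be told apart from the loss of both factors. The authors merged the samples of each group with 2 into 1 list, and the other groups had 1 sample, so no spread between replicates could be had and no difference below was tested. Sequencing depth was unknown. In whole embryos, fewer cells with a bound site and less binding per cell cannot be told apart.

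For Ep300, genes chosen as tissue markers differed between the dissections in the direction of the labels. All 5 ectoderm markers (tfap2a, dlx3, grhl3, krt70 and krt7) had a WT ectoderm Ep300 peak within 20 kb, against 1 of 5 with a WT endoderm peak. The 5 are among 15 surface ectoderm genes set out below. Of these 15, all had a WT ectoderm peak and 11 a WT endoderm peak, so the contrast depends on the markers taken. Of 5 endoderm markers (sox17a, sox17b.1, gata4, gata6 and hhex), 2 had an ectoderm peak and 5 an endoderm peak. For H3K27ac the ectoderm markers hardly separated the tissues: 5 of 5 had an ectoderm region within 20 kb and 4 of 5 an endoderm one. Of the endoderm markers, 2 of 5 had an ectoderm H3K27ac region and 5 of 5 an endoderm one.

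The study amplified the foxi1 locus with a pair of primers in ChIP followed by quantitative PCR at the 64-cell stage. In that assay the paper reports binding of Foxi2 and of Sox3 at foxi1, and none of Ep300. The primers are shown because they mark the stretch of this locus that was assayed before the stages of the lists, and they are printed in lower case with no part singled out. The forward primer has 20 bases and the reverse primer 22, and where they fall relative to the peaks below was not determined.
foxi1 forward primer: tgctttggaactgaccctgt
foxi1 reverse primer: agctgaatctaatgtctgccca

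The 30 peaks were concentrated at 3 sites upstream of foxi1. The proximal site, chr3:32481402-32482449, was called in 10 of the 12 lists, with summits 1671 to 1819 bp upstream of the start. The middle site, chr3:32483626-32485555, was called in 11 lists, with summits at 4055 to 4133 bp, and its outer limit comes from a wide Sox3 peak that runs on over the distal site. The distal site, chr3:32484737-32485513, was called in 7 lists, and its summits fell within 19 bp of each other, at 4989 to 5008 bp. Median summits of neighbouring sites were 2292 and 910 bp apart. All 3 summits lay between protein-coding genes, and the outer edge of the distal site was 12548 bp from dock2. The remaining 2 peaks appeared in the Foxi2 list of stage 8 alone, one over the 3′ end of foxi1 and one between the middle and distal sites. No peak was found elsewhere in the window.

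**Figure D1:**
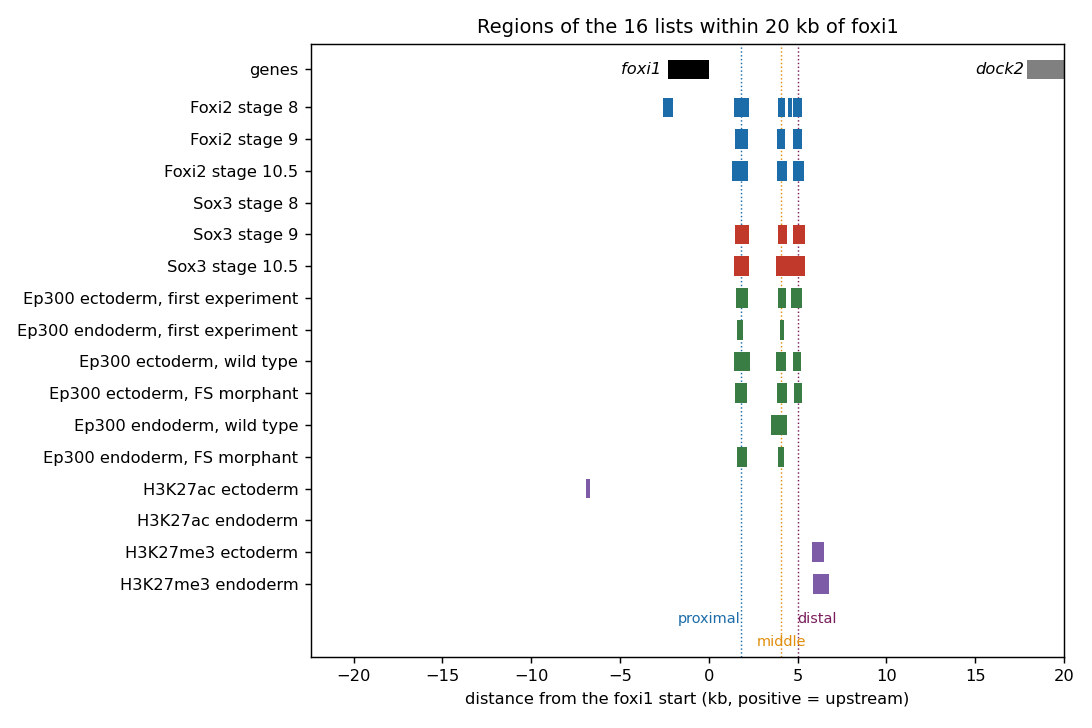
Map of the foxi1 window. The x axis is the distance from the foxi1 start in kb, with positive values upstream, and each row is 1 of the 16 lists, with a bar over the length of each region. Dotted lines mark the median summits of the proximal (1796 bp), middle (4088 bp) and distal (4998 bp) sites, where 28 of the 30 Foxi2, Sox3 and Ep300 peaks lie, while no histone region touches any of the 3 lines.

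Foxi2 occupied all 3 sites at every stage examined, beginning at stage 8, the mid-blastula. The distal site carried the strongest of them, and at stages 8 and 9 it was among the strongest Foxi2 peaks in the genome. Strength is given as the fold enrichment of ChIP over input at the summit, as the peak caller wrote it. It is also given as a percentile, the percentage of peaks of the same list with that fold or a lower one. The percentile is added because folds of different libraries are not on 1 scale.

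At stage 8 the Foxi2 fold was 31.5 at the proximal site (percentile 95.2), 13.4 at the middle site (42.8) and 38.1 at the distal site (98.8), where it ranked 158 of 13158. At stage 9 it was 30.0 (percentile 79.0), 17.8 (39.7) and 54.2 (98.7) in the same order, and the distal peak ranked 90 of 6668. At stage 10.5, the early gastrula, it was 31.1 (percentile 79.6), 25.8 (61.0) and 33.3 (84.8). The proximal fold thus stayed between 30.0 and 31.5, while the middle site was the weakest of the 3 at each stage and its gap to the others was narrowest at stage 10.5. Medians of the whole lists were 14.6, 20.1 and 23.2 at the 3 stages, so a constant fold takes a lower place in a later list. Within 20 kb of foxi1 there were 5 Foxi2 peaks at stage 8, which was reached by 2.13% of 21749 protein-coding genes. The 3 peaks at stage 9 and the 3 at stage 10.5 were reached by 2.90% and 2.98%. The 3 upstream sites were also the 3 of 5 stage 8 peaks that overlapped a Foxi2 peak at both later stages, against 22.2% of all stage 8 Foxi2 peaks.

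The 2 peaks confined to stage 8 were weaker. The peak over the gene's 3′ end, chr3:32477566-32478080, had a fold of 12.2 (percentile 33.4). The one at chr3:32484569-32484782 had a fold of 3.87 (percentile 0.380) and thus stood close to the lower end of its list.

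Sox3 was not called at foxi1 at stage 8 and was called over all 3 sites from stage 9. At stage 9 its fold was 21.9 at the proximal site (percentile 69.0), 23.0 at the middle site (72.2) and 25.4 at the distal site (79.8). The 3 sites thus differed less for Sox3 than for Foxi2, whose distal fold at that stage was 54.2 and whose middle fold was 17.8. At stage 10.5 the Sox3 fold was 25.8 at the proximal site (percentile 89.8) and 29.7 at the middle site (94.0). The second of these peaks, chr3:32483928-32485555, was 1628 bp wide and extended over the distal site, whose Sox3 enrichment at that stage therefore had no value of its own. Stage 9 Sox3 counts of 3 or more were found at 1.42% of protein-coding genes and stage 10.5 counts of 2 or more at 20.4%.

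The stage 8 Sox3 list differed in make-up from the others. It held 5827 peaks, and its weakest had a fold of 7.30 and a −log10 p of 12.2, whereas the lowest folds of the other 11 lists were 1.19 to 2.67. Weak Sox3 binding at foxi1 at stage 8 would not have entered this list, so the missing peak does not show that the site was free of Sox3. At least 1 stage 8 Sox3 peak lay within 20 kb of 22.9% of protein-coding genes. The nearest one to foxi1 was 303127 bp away, inside dock2, with a fold of 19.0.

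**Figure D2:**
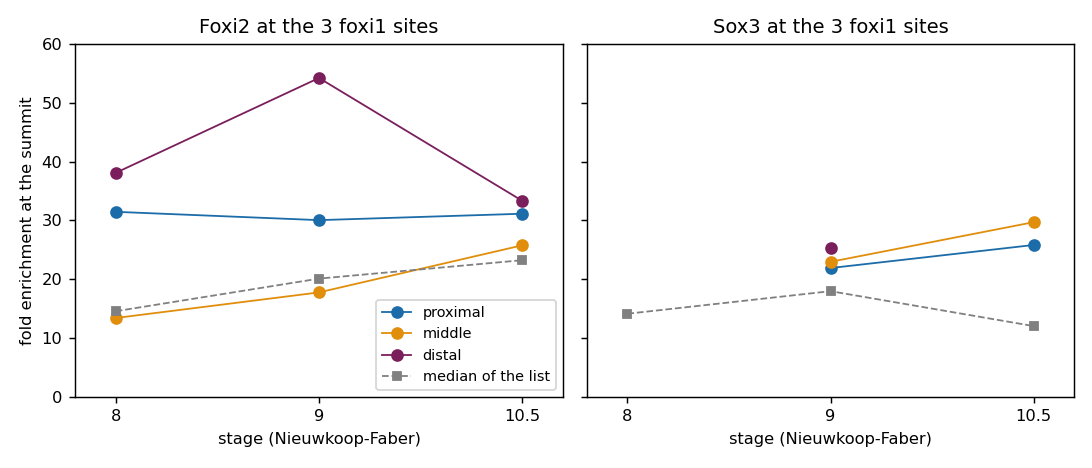
Fold enrichment (y axis) of Foxi2 (left) and Sox3 (right) at the proximal, middle and distal sites by Nieuwkoop-Faber stage (x axis), 1 merged list per point, with the median of each whole list in grey. Foxi2 at the distal site reaches 54.2 at stage 9, and Sox3 has no point at stage 8 and none of its own at the distal site at stage 10.5, where the peak of the middle site covers both.

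Foxi2 and Sox3 shared the 3 sites closely once both were called. At stage 9 all 3 Foxi2 peaks overlapped a Sox3 peak by at least 1 bp, which held for 39.6% of Foxi2 peaks and, in the other direction, 59.6% of Sox3 peaks over the genome. Their summits were 12, 52 and 9 bp apart at the proximal, middle and distal sites. At stage 10.5 all 3 Foxi2 peaks and both Sox3 peaks overlapped, against 79.4% and 32.8% genome-wide, with summits 16 and 22 bp apart at the proximal and middle sites. At stage 8 none of the 5 Foxi2 peaks overlapped Sox3, against 8.79% of all. Most Foxi2 peaks thus overlapped Sox3 at stage 10.5 over the genome, while most Sox3 peaks of that stage did not overlap Foxi2. With 50% of each peak required to overlap, 1 of the 3 stage 10.5 Foxi2 peaks remained, since the wide Sox3 peak covered the other two.

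Ep300 was present at foxi1 in both tissues and in both experiments, at the positions where Foxi2 and Sox3 were bound in whole embryos. The distal site was called in the ectoderm lists alone. In the first experiment the ectoderm folds were 4.83 at the proximal site (percentile 78.2), 4.21 at the middle site (67.4) and 4.18 at the distal site (67.1). Endoderm in that experiment had a fold of 2.87 (26.0) at the proximal site, 3.98 (55.7) at the middle site and no distal peak. In the second experiment WT ectoderm had 20.0 at the proximal site (percentile 96.2, rank 213 of 5552), 11.3 at the middle site (70.4) and 10.6 at the distal site (65.5). WT endoderm in that experiment had the middle site only, at 8.63 (percentile 45.0). By fold percentile, Ep300 at the proximal site stood higher than at the other 2 sites in WT ectoderm of both experiments. By −log10 p the middle site led in the first experiment (percentile 79.7, against 75.7 at the proximal site). In endoderm Ep300 at the proximal site was weak or not called.

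The distal site was called in all 3 ectoderm Ep300 lists and in none of the 3 endoderm ones. An ectoderm Ep300 peak with no endoderm peak of the same experiment was common in the genome: 57.7% of WT ectoderm peaks had none in the second experiment and 64.8% in the first, and of those bound by both Foxi2 and Sox3 45.1% and 54.0% had none. At least 1 ectoderm Ep300 peak of the first experiment lay within 20 kb of 20.7% of protein-coding genes, and 3 or more of the second experiment lay near 3.29%. At least 1 endoderm peak lay near 30.8% in the first experiment and 31.7% in WT of the second. In the first experiment foxi1 had 3 ectoderm and 2 endoderm peaks, and the shares of genes with as many were not computed.

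Each of the 14 Ep300 peaks at foxi1, over 6 lists, was co-bound. This means that the stage 10.5 lists of Foxi2 and of Sox3 each held a peak overlapping it. Both lists are from whole wild-type embryos, and neither factor was measured in dissected or FS morphant tissue. For endoderm and FS morphant peaks, co-bound therefore names a position and not occupancy in that tissue. In the ectoderm lists this applied to 45.4% of all peaks of the first experiment, 52.4% of WT peaks and 35.6% of FS morphant peaks of the second. In endoderm the shares were 16.7%, 20.3% and 18.4% in the same order. The WT ectoderm Ep300 summits were 14, 7 and 1 bp from the Foxi2 summits of the proximal, middle and distal sites, and 2 and 29 bp from the Sox3 summits of the proximal and middle sites. At least 3 co-bound ectoderm Ep300 peaks within 20 kb were found at 294 genes, 1.35% of all, and at 50 of the 4017 genes no longer than 5000 bp, 1.24%, foxi1 being one of these short genes.

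In FS morphant ectoderm, Ep300 remained called at all 3 sites, with a lower fold at 2 of them. Such a count of 3 was reached by 1.66% of protein-coding genes in that list. Over the genome, 55.9% of WT ectoderm Ep300 peaks had no FS morphant peak, and 59.8% of co-bound ones had none. At foxi1 this was 0 of 3. In reverse, 32.1% of FS morphant ectoderm peaks had no WT peak, and again 0 of 3 at foxi1. Of co-bound WT peaks with at least the fold of the foxi1 distal peak, 42.7% had no FS morphant peak, and of those with at least the fold of the proximal peak, 16.8% had none. Among the 294 genes with 3 or more co-bound ectoderm Ep300 peaks, 48, or 16.3%, kept an FS morphant peak at every one of them.

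The proximal fold was 20.0 in WT and 11.2 in FS morphant ectoderm, a ratio of 0.560 (log2 ratio -0.84). The middle fold was 11.3 and 13.6, a ratio of 1.21 (log2 ratio 0.27). The distal fold was 10.6 and 7.94, a ratio of 0.748 (log2 ratio -0.42). The proximal site, the strongest of the 3 in WT ectoderm, was therefore second in the FS morphant list, where the middle site led. Percentiles in their own lists went from 96.2 to 64.6 at the proximal site, from 70.4 to 78.4 at the middle site and from 65.5 to 35.0 at the distal site. The lists differ in length (5552 WT and 3593 FS morphant peaks) and in median fold (8.76 and 9.40), so an equal fold takes a different percentile in each.

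Over all 2451 shared ectoderm peaks the median ratio was 1.06 (quartiles 0.822 and 1.31), and 43.0% had a lower fold in the FS morphants. Over the 1168 co-bound ones the median was 0.937 (quartiles 0.701 and 1.18), and 57.1% were lower. Among co-bound shared peaks, 12% had a ratio at or below that of the proximal site. For the distal site this share was 30.5% and for the middle site 76.8%. The proximal site thus lay below the lower quartile and the middle site just above the upper one. Over the 159 co-bound shared peaks of at least the proximal site's WT fold, the median ratio was 0.863, and 110 were lower in the FS morphants. For the middle site's WT fold there were 771 such peaks, with a median of 0.825 and 518 lower. For the distal site's there were 832, with a median of 0.834 and 553 lower. Ratios exist only where both lists called a peak, so peaks that fell below the limit of the FS morphant list do not enter these medians. Divided by the list medians, the ratios were 0.522, 1.12 and 0.697, and with −log10 p in place of fold they were 0.388, 1.12 and 0.599, in the order proximal, middle and distal.

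In endoderm the middle site had a fold of 8.63 in WT and 8.01 in FS morphants, a ratio of 0.928 (log2 ratio -0.11). With −log10 p in place of fold the ratio was 0.869. The fold ratio stood at percentile 21.4 among all shared endoderm peaks and 28.2 among co-bound ones. The median ratio was 1.03 (quartiles 0.943 and 1.13) over all 9684 shared peaks and 0.998 (quartiles 0.917 and 1.07) over the 2007 co-bound ones. The proximal site was called in FS morphant endoderm, with a fold of 5.96 (percentile 3.80), and not in WT endoderm of the same experiment. It was nevertheless present in endoderm of the first experiment (2.87), where embryos were wild type. Of all FS morphant endoderm peaks, 13.6% had no WT peak. At least 1 FS morphant endoderm peak, with or without a WT peak, lay within 20 kb of 31.5% of protein-coding genes. The share with 2 or more, the count at foxi1, was not computed. Of WT endoderm peaks, 16.5% had no FS morphant peak, against 0 of 1 at foxi1. Whether the ectoderm and endoderm ratios differed was not tested.

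**Figure D3:**
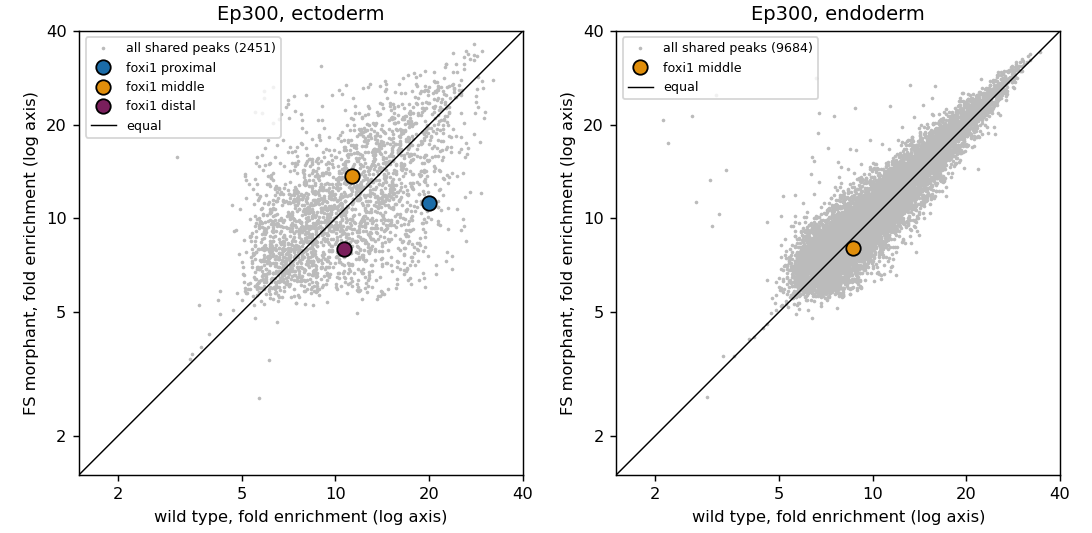
Ep300 fold enrichment in FS morphant (y axis) against WT tissue (x axis), both on log axes, for all peaks shared by both lists (grey, 2451 in ectoderm and 9684 in endoderm) and for the foxi1 sites (coloured). The line marks equal folds. In ectoderm the proximal (ratio 0.560) and distal (0.748) sites lie under the line and the middle site (1.21) above it.

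H3K27ac regions overlapped most WT ectoderm Ep300 peaks. At foxi1 the mark was not called at any of the 3 sites in either tissue, each measured in 1 library. Ectoderm had 1 H3K27ac region in the window, chr3:32473188-32473408, which lies beyond the 3′ end of foxi1, 6717 to 6937 bp downstream of its start. It was 221 bp long, its signal was 150 against a list median of 1349, and it ranked 15482 of 16257. From the nearest edges of the proximal and distal sites it was 7994 and 11329 bp away. Endoderm had no H3K27ac region in the window, and the nearest was 83382 bp from the proximal site. Read coverage was not examined, so a missing call does not show that the 3 sites lacked H3K27ac. The paper names foxi1 among genes for which it displays browser tracks that include this mark. For co-bound regions with Ep300 as a group, it reports more H3K27ac in ectoderm than in endoderm. At least 1 H3K27ac region lay within 20 kb of 76.5% of protein-coding genes in ectoderm and 73.6% in endoderm. The ranked tables held every H3K27ac peak of the caller's numbering, 56295 in ectoderm and 51259 in endoderm, and numbers 18255, 18256 and 18257 of the ectoderm list fell below, in and above the foxi1 window, so no called ectoderm peak was lost between the caller and the ranked table.

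Most co-bound Ep300 peaks overlapped an H3K27ac region. These regions join called peaks across gaps of up to 12 kb, and an Ep300 peak in such a gap counts as overlapping. Shares without overlap, or as far from a region, would be higher against the called peaks themselves. The foxi1 region held a single called peak and no gap. Of all WT ectoderm Ep300 peaks 17.2% overlapped no ectoderm H3K27ac region. Of 2909 co-bound WT ectoderm Ep300 peaks, 15.1% (95% Wilson interval 13.8 to 16.4) overlapped none, and of the 1451 with at least the fold of the foxi1 distal peak, 6.96% did not. Of the 191 with at least the proximal fold, 4, or 2.09% (0.817 to 5.26), overlapped none, the foxi1 proximal peak among them. The Ep300 peaks of the proximal, middle and distal sites lay as far from H3K27ac as 7.01%, 6.08% and 5.88% of co-bound peaks or farther. Of the 294 genes with 3 or more co-bound peaks, 15, or 5.10%, had no H3K27ac region at any of them. foxi1 was one, and dock2 another through the same 3 peaks. kit, a receptor tyrosine kinase gene, pax3, a regulator of neural crest and neural plate border, wnt11b, a Wnt ligand gene, and zeb2, a zinc-finger repressor gene, were others, named here after their values had been seen. The rest were urad, esr-5, LOC100488596, LOC493495 beside wnt11b, and the chromosome 1 neighbours cbwd2, cbwd1.1, LOC100486127, foxd4l1.1 and foxd4l1.2. Windows of such neighbours overlap, so the 15 genes are not 15 separate loci.

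**Figure D4:**
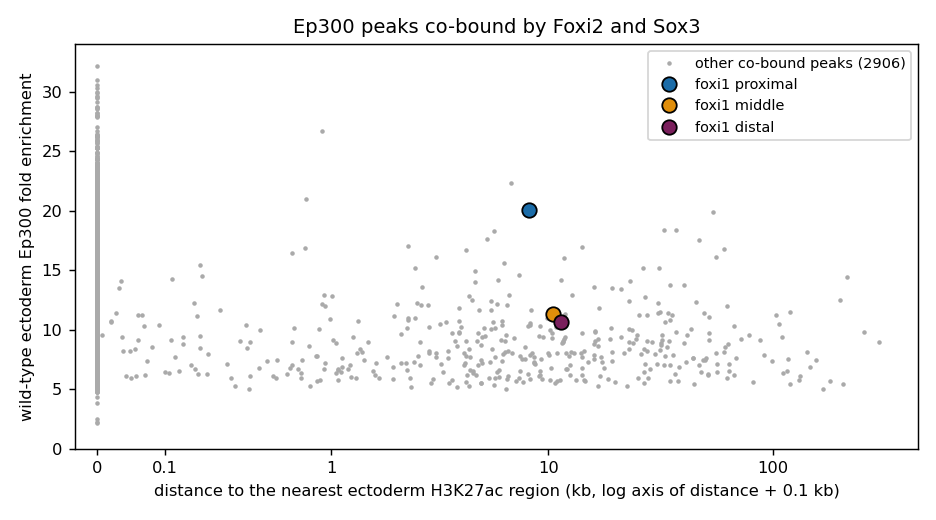
WT ectoderm Ep300 fold enrichment (y axis) of the 2909 peaks co-bound by Foxi2 and Sox3 at stage 10.5 against the distance to the nearest ectoderm H3K27ac region (x axis, kb, log axis of distance + 0.1 kb, 0 for overlap). Points are single peaks, and the 3 foxi1 peaks (coloured) lie 8156, 10521 and 11446 bp from that region while 2.09% of peaks as strong as the proximal one overlap none.

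No super-enhancer, a cluster of H3K27ac regions stitched over 12 kb and ranked above the signal cutoff, lay near foxi1. The nearest was 1149059 bp away in ectoderm and 2443877 bp away in endoderm. The endoderm distance rests on the deposited super-enhancer calls, whose signal column is headed with an animal-side library, so it is uncertain. Of co-bound WT ectoderm Ep300 peaks, 53.1% fell in an ectoderm super-enhancer, and 79 of the 294 genes with 3 or more such peaks, 26.9%, had a gene body that overlapped none.

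H3K27me3 was called close to the distal site, on its upstream side, in both tissues. The ectoderm region, chr3:32485911-32486616, ranked 17415 of 29268 and the endoderm region, chr3:32486013-32486873, ranked 18996 of 27207. They began 398 and 500 bp beyond the edge of the distal site and did not overlap it. A region of this mark lay within 20 kb of 88.0% of protein-coding genes in ectoderm and 85.1% in endoderm, so its presence did not set foxi1 apart.

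Among the matched genes of its family, foxi1 had the most Foxi2 peaks at stages 8 and 9, and foxi4.2 had as many at stage 10.5. The annotation holds 4 of them, with the foxi3 genes of the study under their older names foxi4.1 and foxi4.2. foxi2 itself, the maternal gene, had 1 Foxi2 peak at stage 8 (fold 23.7) and 1 at stage 9 (29.2), no Sox3 peak and no ectoderm Ep300 peak, and its WT endoderm Ep300 fold was 16.3. foxi4.1 and foxi4.2 are neighbours on chromosome 1 whose windows overlap. They had no Foxi2 peak at stage 8, 0 and 1 at stage 9, and 1 and 3 at stage 10.5. Sox3 peaks at stage 10.5 numbered 4 and 7, and the gene body of both overlapped an ectoderm super-enhancer. Co-bound WT ectoderm Ep300 peaks numbered 3 at foxi1, 0 at foxi2, 1 at foxi4.1 and 2 at foxi4.2. Counting all WT ectoderm Ep300 peaks, the numbers were 3, 0, 3 and 5 in the same order. Regions over all 16 lists numbered 33, 7, 32 and 49.

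The foxi1 pattern was set beside other genes of the same tissues. Of 15 surface ectoderm genes, all 15 had at least 1 co-bound WT ectoderm Ep300 peak within 20 kb (median 3 per gene), against 10.6% of all genes. They were tfap2a, tfap2c, tp63, grhl1, grhl2, grhl3, dlx3, dlx5, dlx6, gata2, gata3, msx1, klf5 and the keratin genes krt7 and krt70. The neighbours dlx5 and dlx6 share peaks. The paper names several of the 15, such as tfap2a, tp63, dlx3 and dlx5, as targets co-bound by Foxi2 and Sox3 in this same ChIP-seq. The 15 of 15 therefore gives no independent support. Of 8 placode genes, regulators of sensory organ precursors, 3 had a co-bound WT ectoderm Ep300 peak. Of 11 matched ionocyte genes, 4 had one, with slc26a4 not matched. The gene body overlapped an ectoderm super-enhancer at 13 of the 15 surface ectoderm genes, against 12.1% of all protein-coding genes, and not at foxi1. Ep300 peaks were fewer in FS morphant than in WT ectoderm at 12 of the 15, beside 58.9% of the 4257 genes with any WT ectoderm Ep300 peak and 78.6% of the 715 genes with 3 or more. grhl3, a grainyhead-like factor of the superficial epidermis, went from 3 peaks to 0, tp63, a p53-family factor of basal epidermis, from 6 to 1, and klf5, a Krüppel-like factor of epithelia, from 6 to 1. tfap2a, an AP-2 factor, had 2 in both, dlx3, a distal-less homeobox gene, had 1 in both, and tfap2c, another AP-2 factor, had 3 and 4. The 3 peaks of foxi1 were called in both, so its unchanged count was shared with some of these genes.

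Presence or absence of a region within 20 kb was the same as at foxi1 in all 16 lists at 7 of 21747 other genes. Such a match leaves out the number, size and rank of the regions. The 5 with the nearest folds, by the Euclidean distance of log2(1 + strongest fold) over the 12 Foxi2, Sox3 and Ep300 lists, were LOC101732050 on chromosome 6 (distance 0.918), dlx5 and dlx6 on chromosome 6 (1.18 each, through shared peaks), and astl2b and astl2c on chromosome 4 (1.40 each, also through shared peaks). dlx5 and dlx6 are distal-less homeobox genes, and astl2b and astl2c are astacin-like metalloprotease genes. The gene bodies of dlx5 and dlx6 overlapped an ectoderm super-enhancer, and that of foxi1 did not. LOC101732050 had 1 co-bound WT ectoderm Ep300 peak, while dlx5, dlx6, astl2b and astl2c had 3 each, as did foxi1. The strongest WT ectoderm Ep300 fold was 20.3 at LOC101732050, 19.7 at dlx5 and dlx6 and 25.3 at astl2b and astl2c, beside 20.0 at the proximal site of foxi1. In FS morphant ectoderm the strongest fold was 9.96, 13.7 and 10.9 in the same order, beside 13.6 at foxi1, where it was that of the middle site. The strongest peak of a window need not be the same peak in both lists. Both lists were among the 12 used for the distance, so closeness of these folds to those of foxi1 follows from how the genes were picked.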

How the data were processed

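ChIP-seq of Foxi2, Sox3, Ep300, H3K27ac and H3K27me3 was analysed from 16 deposited lists, covering 16 of 19 groups. The authors aligned reads to the X. tropicalis v10.0 genome (Bowtie2 2.2.7 per the labels), removed duplicates, called peaks with MACS2 against input DNA, and merged replicates by the irreproducible discovery rate (IDR) at 0.05. Their peak lists give a fold enrichment (a ratio of ChIP to input), a −log10 p, an IDR score, and other values such as the summit offset, all as deposited by the authors. The histone lists were stitched over 12 kb and ranked with ROSE by the authors, whose signal column is from scaled alignments. The endoderm H3K27ac table heads that column with an animal-side library, so its signal values were not used. Its deposited ranks and super-enhancer calls, which ROSE derives from signal, were used as they stand. The protocol in the labels names an anti-VegT antibody for all samples, and the titles were followed here. For the first Ep300 experiment, the labels give 1 sample per tissue although the deposited score is that of the IDR step, and what entered it is not given in the sources used here.

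Peaks were assigned to the window, paired by overlap of at least 1 bp and grouped into sites by summits at most 250 bp apart, using Python 3.11.15, pandas 2.3.3 and NumPy 2.4.6, with figures from matplotlib 3.10.9. The overlap functions were tested on simulated intervals. Gene positions came from RefSeq (UCB_Xtro_10.0), and the strand of foxi1 from the gene coordinates in the study's supplement. Background shares cover 21749 protein-coding genes, whose windows vary with gene length (median 15506 bp). Wilson intervals (95%) cover counting error only, and neighbouring genes share peaks. Depth was unknown. The genes described were foxi1, genes overlapping its window, the 5 genes most alike over the lists, and the gene lists. Genes that shared with foxi1 the lack of H3K27ac at their co-bound peaks were added after their values had been seen. The window, members and lists were chosen with earlier results of these data known. No genome sequence was used, so motifs were not searched. Alternatives were windows of 10 and 50 kb, a 50% overlap of each peak, summits at most 200 bp apart, the stronger 50% of each list, and 3 other scales of the ratio.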

Additional observations from a re-analysis of the deposited data

How the results depend on the processing

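No paired analysis was possible because the lists merge the replicates, and leaving out a replicate was impossible for the same reason. Of 123 alternatives over 31 results, 105 kept the value within 1.5 times and 18 did not. All ratios of FS morphant to WT Ep300 kept their direction.

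Requiring 50% of each peak to overlap left 1 co-bound Foxi2 peak at stage 10.5 and 1 co-bound ectoderm Ep300 peak in each experiment, since the wide Sox3 peak then no longer counted, and it left the 1 WT endoderm Ep300 peak without an FS morphant peak. With the stronger 50% of each list by −log10 p, Foxi2 at stage 8 had 3 peaks in the window (2 by fold), endoderm Ep300 had 1 in the first experiment and 0 in WT and FS morphants of the second (the same by fold), and 1 WT ectoderm Ep300 peak lacked an FS morphant peak. The stronger 50% by rank left 0 H3K27ac and 0 H3K27me3 regions in each tissue. A window of 50 kb held 2 ectoderm H3K27me3 regions and raised the placode genes with a co-bound peak to 5.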
